A study of Homo sapiens with 14 samples.

Results

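Refolded RNA was probed in separate experiments, with NAI-N3 in icSHAPE and with NAz-N3 in icLASER, and the 2 resulting in vitro profiles were set against each other, nucleotide by nucleotide, in 3745 genes. Members were the transcripts present in both profiles with at least 100 nucleotides scored in both. For each gene the transcript with the highest mean RPKM (reads relative to transcript length and to the number of mapped reads, averaged over the 2 profiles) was kept. Both in vitro profiles list 11279 transcripts in common, 11035 of them reach the minimum, and 205 of these have no gene in GENCODE release 44 and were left out, of 20512 transcripts in any of the 4 profiles of the series. The 14 members nearest above the minimum, fewer than 10 nucleotides over it, had a median correlation of 0.494, and the 25 transcripts at most 10 nucleotides below it had 0.577. The members hold 5459529 nucleotides scored with both reagents. By annotation, 2182 were protein-coding transcripts, 972 pseudogenes, 132 transcripts of coding genes without a defined coding sequence, 127 targets of nonsense-mediated decay, 116 retained-intron transcripts, 112 long noncoding RNAs (lncRNAs), 88 small noncoding RNAs and 8 rRNAs, with 5 and 3 of other classes. Sequence was available for 2114 members, those whose length equals that of the GENCODE transcript. They include 968 of the 972 pseudogenes but only 644 of the 2182 protein-coding transcripts. Results that need sequence, such as those by base, context and shared words, therefore give pseudogenes more weight.

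The RNA came from K562, an established human leukemia cell line of erythroid character. Per the labels, icSHAPE used 100 mM NAI-N3 at 37 °C for 5 min and icLASER used NAz-N3 from a 1 M stock with 10 min of UV light. These conditions are worded in the labels for treated cells, and the in vitro samples carry the same wording. The in vitro groups hold 2 libraries each, set against 3 DMSO libraries for icSHAPE and 2 libraries without UV for icLASER. RNA of all groups was polyadenylated RNA, and the authors pooled the libraries of a group into 1 profile before deposit. No difference below therefore has a replicate check or a p-value, the profiles give no read counts, and the depth behind a score is unknown.

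NAI-N3 acylates the 2′-hydroxyl of the ribose where the backbone is flexible, so its signal marks unconstrained nucleotides of any base. NAz-N3 turns, under long-wavelength light, into a reactive nitrenium ion that adds to C8 of purines exposed to solvent, so its signal is meant to mark accessible A and G. In refolded RNA neither reaction meets the proteins that cover transcripts in cells, and the comparison asks which genes, mRNA regions and bases the reagents score alike when RNA folds alone. A score runs from 0 to 1, and a nucleotide is called reactive here at a score of at least 0.5. Scores are relative to the transcript: in both profiles all 3745 members (100%) reach 1, and the share of reactive nucleotides per transcript lay between 7.72% and 13.2% for icSHAPE and between 7.52% and 12.8% for icLASER from the 10th to the 90th percentile. The label of the cells was checked on globins, the oxygen carriers of red cell precursors. HBG1, a fetal globin gene, had an RPKM of 2105 in icSHAPE and 1225 in icLASER. HBG2, its near-identical neighbor, had 1904 and 1070. GATA1, the master transcription factor of the erythroid line, had 73.0 and 85.6. HBG1 and HBG2, like HBA1 and HBA2, share reads, so their separate values are uncertain.

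Stretches of 30 nt of coding sequence show what agreement and disagreement looked like on the RNA itself. They were taken from 57064 such stretches of 122 genes with sequence, with every nucleotide scored in both profiles and a mean RPKM of at least 50. Members without sequence, HSP90AB1 and ANP32B among them, and those of 1 chromosome were not searched. Shown are those with the most nucleotides reactive to both reagents or to 1 alone, counting 1 stretch per gene. Capitals mark reactive nucleotides, first for icSHAPE and then for icLASER. Among the stretches searched, the most doubly reactive lay in SFPQ, which encodes a splicing factor, on the minus strand at chr1:35189011-35189040 (GRCh38). There 27 of 30 nucleotides reacted with both reagents. Among other genes, the next lay in PTP4A2, a tyrosine phosphatase gene, on the minus strand at chr1:31911702-31911731, with 25. HMGB2, which encodes a chromatin protein that bends DNA, followed on the minus strand at chr4:173332194-173332223, with 24.
SFPQ icSHAPE: AAUCAAGaAAUGCAgAAACGUAAAGAAAUG
SFPQ icLASER: AAUCAAGaAaUGCAgAAACGUAAAGAAAUG
PTP4A2 icSHAPE: CUgUGUUgCAgUGCAUUgUGUUGCaGGAUU
PTP4A2 icLASER: CUGUGUUGCAGUGCAUUGUGUUGCaGGAUU
HMGB2 icSHAPE: CGuGCCAagGGCAaAAGUGAAGCAGGAAAG
HMGB2 icLASER: CGUGCCAagGGCAAAAGuGAAGcAGGAAAG

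In the SFPQ stretch 23 of 30 nucleotides were purines and the mean scores were 0.891 for icSHAPE and 0.883 for icLASER. The HMGB2 stretch also held 23 purines, with means of 0.775 and 0.811. The PTP4A2 stretch held 14 purines and 12 U, with means of 0.814 and 0.904, so U and C were scored there by both reagents. The mean predicted unpaired probability (RNAplfold) was 0.702 in the SFPQ stretch, 0.629 in HMGB2 and 0.415 in PTP4A2. None of the 3 stretches occurs as a whole in a transcript of another gene.

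Stretches with the most nucleotides reactive in icSHAPE alone lay in RPL13, a 60S ribosomal protein gene, on the plus strand at chr16:89560976-89561005, with 15, in RPL38, another 60S gene, on the plus strand of chromosome 17 across an exon junction (74203958 and 74204130 to 74204158), with 14, and in ACTB, the beta-actin gene, on the minus strand at chr7:5528061-5528090, with 14. Those with the most in icLASER alone lay in MT-CYB, the mitochondrial cytochrome b gene, on the plus strand at chrM:14755-14784, with 17, in HMGA1, which encodes a chromatin protein that binds AT-rich DNA, on the plus strand at chr6:34240830-34240859, with 17, and in MT-ND5, a complex I subunit gene, on the plus strand at chrM:12634-12663, with 15. Capitals again mark reactive nucleotides.
RPL13 icSHAPE: AuggCAugGUCUUGaagcccCACUUcCACA
RPL13 icLASER: auGGcauGGucuUGaagccccacuuccaca
RPL38 icSHAPE: gccuCGGAaAAUUgaggAAAUCAaggaCUU
RPL38 icLASER: gccucGgaaAauuGaggaaAucaagGacuu
ACTB icSHAPE: uCuGgcggCACCAcCAUGUaCccuggCAUU
ACTB icLASER: ucuGgcGgcaccaccauGUacccuggcauu
MT-CYB icSHAPE: AaUacgcaaAacuaacccccuAauaaAaUu
MT-CYB icLASER: AAUACGCAAAACUAacccccuAAUAAAAuU
HMGA1 icSHAPE: aaAagGacggCacuGaGAAgcggggccggg
HMGA1 icLASER: AAAAGGaCGGCACUGAGAAGCggGGccgGG
MT-ND5 icSHAPE: aucauagaauucucacugugauauauaaac
MT-ND5 icLASER: AuCAuAgAauuCuCacuGuGauAUAuAAaC

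In RPL13 the mean score was 0.551 for icSHAPE and 0.307 for icLASER, in RPL38 it was 0.598 and 0.223, and in ACTB 0.585 and 0.299. The HMGA1 stretch had 0.262 and 0.742, with 14 G among its 30 nucleotides. MT-CYB had 0.325 and 0.673, and MT-ND5 0.174 and 0.563, with no nucleotide of MT-ND5 reactive in icSHAPE. A and G made up 13 of 30 nucleotides in RPL13, 19 in RPL38 and 12 in ACTB, and 16 in MT-CYB, 23 in HMGA1 and 15 in MT-ND5, so the purine counts of the 2 sets overlap. The RPL13 stretch occurs in a transcript of another gene, so reads there cannot be assigned to 1 gene. Of the 30-nt words that overlap a stretch, 71.2% occurred in another gene for RPL13, 65.8% for ACTB, 40.7% for HMGA1, 33.9% for PTP4A2 and 20.3% for RPL38, so reads over these are ambiguous in part as well.

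Across the positions of a transcript, the Pearson correlation (r) between the reagents was above 0 in all 3745 members and ranged from 0.0634 to 0.906. The median was 0.387, with quartiles of 0.298 and 0.494. An r of at least 0.5 was reached by 892 members (23.8%), and 166 members (4.43%) were under 0.2. The level of a gene moved with its r: over 5 equal groups of members from the lowest to the highest mean RPKM, the median was 0.282, 0.3302, 0.375, 0.441 and 0.499, and in the last of them the median RPKM was 116. Longer transcripts had lower values, from 0.479 in the shortest of 5 such groups (median length 363 nt) to 0.289 in the longest (3466 nt). Over members with sequence, the median r also rose with purine share, from 0.344 in the lowest of 5 such groups to 0.515 in the highest. By the share of 30-nt words found in another gene it was 0.344, 0.381, 0.446, 0.503 and 0.486. RPKM, length, purine share and shared words are not separated by these groups, and read depth was not tested.

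**Figure D1:**
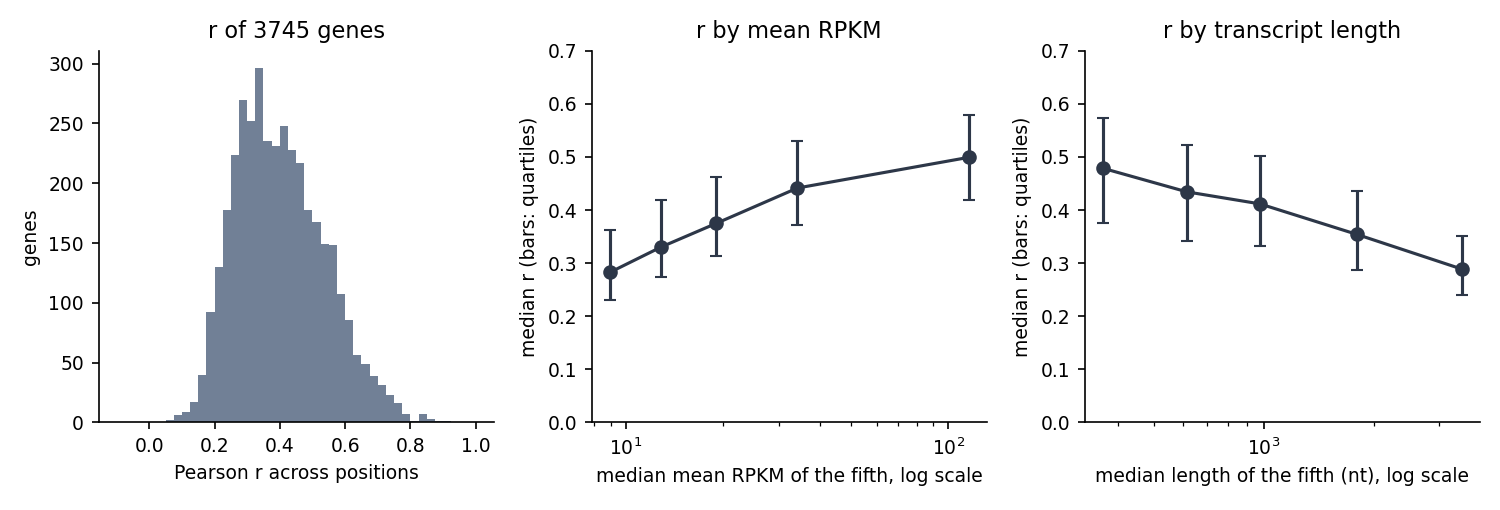
Left, number of genes (y) by Pearson r between icSHAPE and icLASER in vitro across the positions of a transcript (x, steps of 0.025). Middle and right, median r (y) of 5 equal groups of members by mean RPKM and by transcript length (x, log scales), with bars from the 25th to the 75th percentile: the median rose from 0.282 to 0.499 with RPKM and went down from 0.479 to 0.289 with length.

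The agreement was about as large with the base context of each reagent taken out. With each score taken relative to the mean of its 3-base context (previous, own and next base) in the same profile, the median r over the 2114 members with sequence was 0.434, against 0.428 for the same members as deposited. The reagents also agreed most at the same nucleotide. Comparing icSHAPE at 1 nucleotide with icLASER at the nucleotide before it gave a median r of 0.246, and with the nucleotide after it 0.137. At 3 nt either way the values were 0.169 and 0.171, and at 2 nt before and after they were 0.183 and 0.115. Within each profile, the median correlation of a score with the next was 0.318 for icSHAPE and 0.265 for icLASER.

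At a score of at least 0.5, 11.3% of nucleotides were reactive in icSHAPE, 11.2% in icLASER and 3.82% in both, which is 3.02 times the 1.27% that independent calls would give. The counts were 407623 nucleotides reactive in icSHAPE alone, 404116 in icLASER alone and 208689 in both. Per transcript, the median of this overlap ratio was 3.33, with 2.26 and 6.07 at the 10th and 90th percentiles. Over members with sequence the ratio was 3.38, and with the expectation taken within each 3-base context it was 2.81. Scores of exactly 0 made up a median of 63.4% of a transcript in icSHAPE and 44.9% in icLASER, and 34.9% were 0 in both.

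The 4 bases took very different places in the overlap, counted over members with sequence, many of them pseudogenes. G, the purine that icLASER scores most, was reactive in 23.9% of its positions in icLASER and 9.80% in icSHAPE, with 7.11% reactive in both, so 72.6% of the icSHAPE-reactive G were also reactive in icLASER. A was reactive in 13.1% of positions in icSHAPE and 8.85% in icLASER. Of the icSHAPE-reactive A, 32.2% were also reactive in icLASER, against 20.3% of C and 20.9% of U. Read from icLASER, the order differed: 47.6% of its reactive A, 42.6% of its U, 41.5% of its C and 29.7% of its G were also icSHAPE-reactive. G made up 44.9% of the positions reactive in both and 61.2% of those in icLASER alone, but 9.59% of those in icSHAPE alone. A and U made up 35.1% and 34.9% of the icSHAPE-alone positions. Taken across the positions of 1 base in a transcript, with at least 50 such positions, the median r was 0.533 for G (1943 members), 0.474 for A (1979), 0.385 for C (1888) and 0.371 for U (1873). The quartiles of these 4 sets overlap, with 0.422 to 0.637 for G and 0.259 to 0.512 for U.

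Reactive shares of both reagents differed with the base that follows the scored nucleotide. Bases are those at the positions as deposited, and whether scores are offset from the modified nucleotide was not tested. G before A was reactive in 38.9% of positions in icLASER, in 16.2% in icSHAPE and in 13.2% in both, and 81.5% of its icSHAPE-reactive positions were reactive in icLASER too. G before G reached only 11.6%, 4.03% and 2.26%. The widest gaps toward icSHAPE stood at U before A, with 25.4% against 10.1% in icLASER, and U before U, with 17.1% against 4.79%. A before G turned the other way, with 5.70% in icSHAPE and 8.50% in icLASER, while A before U had 18.6% and 9.55%. C before C was the least reactive pair for both, at 3.17% and 1.58%. At C before C, both reagents together scored 0.484% of positions, 9.67 times the share under independence, on a low base.

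Within mRNAs, regions were compared in 760 members with sequence and an annotated CDS, 644 protein-coding transcripts and 116 targets of nonsense-mediated decay, whose annotated 3′ UTR follows an early stop codon. Coding sequence (CDS) had a median r of 0.362 (747 transcripts with at least 100 positions there), the 5′ UTR 0.331 (286) and the 3′ UTR 0.302 (591). The order of the UTRs turned with the setting: with at least 300 positions the 5′ UTR had 0.273 and the 3′ UTR 0.307, and within 3-base context they had 0.311 and 0.321. In the protein-coding transcripts alone the medians were 0.365 in the CDS, 0.334 in the 5′ UTR and 0.294 in the 3′ UTR. Within the same transcript, r in the CDS minus r in the 3′ UTR had a median of 0.0423 with quartiles of -0.0723 and 0.134, and CDS was higher in 349 of 579 transcripts. The 5′ UTR and CDS differed by a median of -0.00553 and the 5′ UTR was higher in 133 of 282. The quartiles of both differences span 0. In the 226 transcripts with all 3 regions, the region of highest r was the CDS in 86, the 5′ UTR in 81 and the 3′ UTR in 59.

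The regions differed more in how often each reagent scored them. The 5′ UTR was reactive in 19.1% of positions in icLASER and 15.5% in icSHAPE, with 7.02% in both. The CDS had 12.9%, 13.2% and 4.81%, and the 3′ UTR 8.67%, 9.31% and 2.52%. Of the icSHAPE-reactive positions, 45.3% in the 5′ UTR, 36.3% in the CDS and 27.1% in the 3′ UTR were also reactive in icLASER. The ratio to independence ran in the other order, 2.37, 2.81 and 3.12. Base composition moved with the regions: G and C made up 61.2% of 5′ UTR positions, 50.6% of CDS and 42.1% of 3′ UTR, and its part in these shares was not tested. Along codons, the first position was reactive in 15.8% of cases in icLASER and 15.4% in icSHAPE, the second in 9.76% and 11.7%, and the third in 13.2% and 12.8%. Purines made up 60.6%, 51.2% and 49.1% of the 3 positions.

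Scores were also compared over longer stretches. Over windows of 100 nt with at least 80 nucleotides scored, the window means of the reagents correlated with a median r of 0.682 along a transcript (2056 members with at least 8 windows). With each score taken relative to its window mean, the median r over all 3745 members was 0.358. Windows with a mean of at least 0.4, a level chosen after the values were seen, were rare: 449 of 52618 (0.853%), in 351 genes, were high in both profiles, 208 in icSHAPE alone and 592 in icLASER alone.

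The windows high in both were purine-rich and lay mostly in coding sequence. Of 110 such windows with sequence, the median held 62.9% purines (medians of 35% A and 27.5% G), against 52% over all 17407 windows with sequence. Of those inside an mRNA region, 77 lay in the CDS (81.1%), 14 in the 3′ UTR and 4 in the 5′ UTR, whereas the CDS held 51.2% of all windows. Windows high in icLASER alone were in the 5′ UTR in 28.2% of cases, against 7.60% of all windows and 4.21% of those high in both. In the CDS windows high in both whose annotated CDS starts with AUG (70 windows), 602 of 2227 codons (27.0%) were AAA, AAG, GAA or GAG, which encode lysine and glutamate. Over all CDS windows this share was 14.03%. These codons consist of A and G alone, and their share was not set apart from the purine share of the windows. The codon share was 24.4% in windows high in icSHAPE alone and 21.0% in those high in icLASER alone. The mean predicted unpaired probability had a median of 0.505 in windows high in both, 0.503 in icSHAPE alone, 0.446 in icLASER alone and 0.453 in neither. At least 10% of the 30-nt words of a window occurred in another gene for 26.4% of the windows high in both, against 40.1% of all windows.

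3 windows of coding sequence show this composition, with capitals at nucleotides reactive in both profiles. Among members with sequence, they are the windows of highest summed mean with under 10% of their 30-nt words in another gene and a mean RPKM of at least 20. The PNISR window lies in a gene for an arginine- and serine-rich nuclear protein, on the minus strand at chr6:99400906-99401005. The SFPQ window holds the stretch shown above and lies in 2 exons on the minus strand of chromosome 1, between 35188050 and 35189061. The CANX window lies in the gene of calnexin, a chaperone of the endoplasmic reticulum, in 2 exons on the plus strand of chromosome 5, between 179724692 and 179726687.
PNISR: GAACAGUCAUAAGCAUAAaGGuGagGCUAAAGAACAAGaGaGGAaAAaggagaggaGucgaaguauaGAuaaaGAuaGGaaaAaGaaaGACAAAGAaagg
SFPQ: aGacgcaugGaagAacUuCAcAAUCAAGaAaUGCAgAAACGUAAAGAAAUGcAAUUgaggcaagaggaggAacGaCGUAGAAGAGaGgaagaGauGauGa
CANX: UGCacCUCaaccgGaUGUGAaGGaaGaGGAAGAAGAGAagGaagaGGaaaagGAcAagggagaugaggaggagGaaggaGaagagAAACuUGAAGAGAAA

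In the PNISR window 57 of 100 nucleotides reacted with both reagents, with mean scores of 0.757 for icSHAPE and 0.628 for icLASER and 83% purines. SFPQ had 53, with means of 0.598 and 0.632 and 76% purines, and CANX had 48, with 0.647 and 0.582 and 85% purines. In the rest of these transcripts the median window mean was 0.0577 and 0.101 for PNISR, 0.0257 and 0.0153 for SFPQ, and 0.141 and 0.162 for CANX. The mean unpaired probability of the windows was 0.795, 0.681 and 0.745.

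The genes of highest agreement were described next. Among 1174 members with at least 500 scored positions and a mean RPKM of at least 20, the highest r was 0.868 in ANP32B, which encodes an acidic nuclear protein that binds histones. SFPQ followed with 0.840, in a transcript annotated as a target of nonsense-mediated decay, and HSP90AB1, the constitutive cytosolic Hsp90 gene, with 0.832. WDR43, which encodes a factor of ribosomal RNA processing, had 0.828 in a transcript without a defined CDS. The remaining 6 of the highest 10 were SETP14 (0.775), RPL6P27 (0.770) and a further pseudogene (0.765), SF3A3, a subunit gene of the U2 small nuclear ribonucleoprotein (0.761, without a defined CDS), UBA2, which encodes a subunit of the SUMO-activating enzyme (0.753), and HSP90AA1, the inducible Hsp90 gene (0.752). In ANP32B the window at nucleotides 801 to 900 had mean scores of 0.514 in icSHAPE and 0.544 in icLASER, and the median of its other windows was 0.0264 and 0.0369. In HSP90AB1 the window at 701 to 800 had 0.776 and 0.838, and the median of its other windows was 0.0436 and 0.0486. Both genes held 2 windows high in both profiles, and in HSP90AB1 high scores went on past nucleotide 801, where 25 nt had means of 0.846 and 0.925, and returned at nucleotide 1701, with 0.735 and 0.554. A window with a mean of at least 0.4 in both profiles was held by 351 of all 3745 members, and by 5 of these 10 genes, which were chosen for their r, ANP32B, SFPQ, HSP90AB1, SF3A3 and UBA2, while the highest window of WDR43 had 0.333 and 0.375 and that of HSP90AA1 0.285 and 0.324. Of the 30-nt words of these windows, 63% occurred in another gene for UBA2 and 53% for HSP90AA1, so reads there are ambiguous in part. The share was 8% for SF3A3 and 0% for SFPQ and WDR43. The sequence of the ANP32B and HSP90AB1 transcripts was not used here. With window means removed, r was 0.755 in ANP32B, 0.665 in SFPQ and 0.657 in HSP90AB1. The lncRNA MALAT1 had the highest r of all members, 0.906, over 316 positions of a 352 nt transcript.

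**Figure D2:**
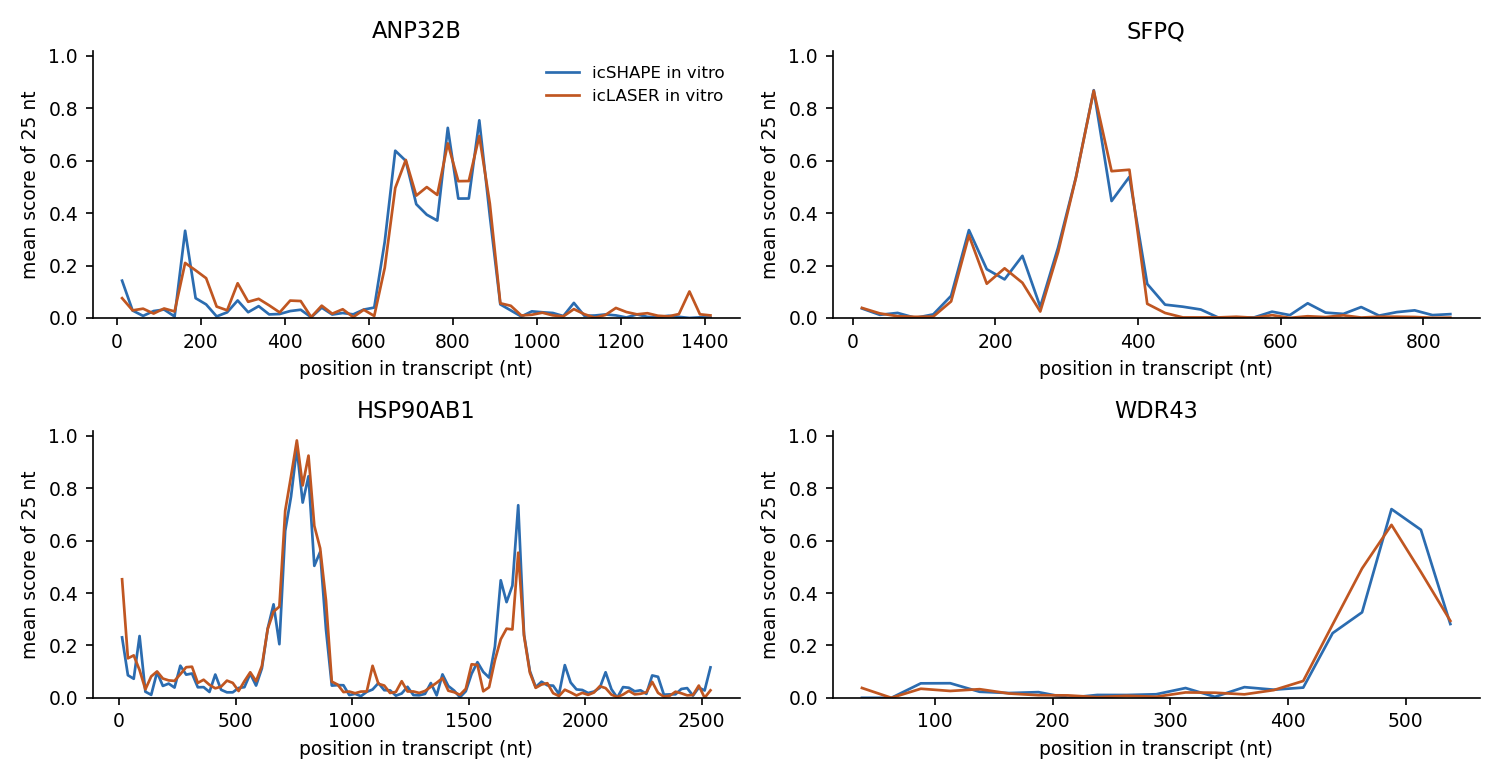
Mean score of successive 25 nt (y) along the transcript (x, nt) in the icSHAPE and icLASER in vitro profiles for ANP32B, SFPQ, HSP90AB1 and WDR43, the 4 genes of highest r (0.828 to 0.868) among members with at least 500 scored positions and a mean RPKM of at least 20. Both profiles rise over the same stretches, and HSP90AB1 has a further rise at nucleotide 1701, with 0.735 and 0.554.

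Among the 10 genes of lowest agreement within the same limits on positions and RPKM, some had more scores at 0 than the median member and some had unequal RPKM. Shares at 0 also varied among the 10 genes of highest r. In icSHAPE and icLASER they were 73.6% and 65.7% in SF3A3, and 36.4% and 32.4% in HSP90AB1. An 864 nt transcript of STAG2, a cohesin subunit gene, without a defined CDS had an r of 0.0770 with 92.3% of icSHAPE and 81.0% of icLASER scores at 0, and an RPKM of 1010.3 in icSHAPE and 196 in icLASER. EMP2, a membrane protein gene, had 0.111, with 88.2% and 75.7% at 0 and an RPKM of 106 and 8.26. ADAM10, a sheddase gene, had 0.124, and MSX1, a homeobox gene, 0.175, with 85.3% and 86.1% of icSHAPE scores at 0. CEBPZOS had 0.177 at an RPKM of 563 and 77.8. With nearly equal RPKM, ATP5F1E, the epsilon subunit gene of ATP synthase, had 0.154, with 74.7% and 71.1% at 0. The retained-intron transcript of UQCRC2, a complex III gene, had 0.191, with 59.3% and 46.2% at 0. STMP1, SLC25A37 (the mitochondrial iron importer mitoferrin) and DYNLT1 (a dynein light chain) lay between 0.170 and 0.188.

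By transcript class, pseudogenes had a median r of 0.491 and protein-coding transcripts 0.347. Of the pseudogenes 463 reached 0.5, or 47.6%, and of the coding transcripts 301, or 13.8%. Pseudogenes were shorter (median length 494 nt against 1680.5 nt) and shared a median of 41.0% of their 30-nt words with another gene, against 4.07%. Among members of 500 nt to less than 1000 nt with a mean RPKM from 20 to less than 100, the medians were 0.494 for 190 pseudogenes and 0.439 for 213 coding transcripts. Scores of a pseudogene can come from reads of its parent gene, which cannot be told apart here. Small noncoding RNAs had a median of 0.403, retained-intron transcripts 0.341 and lncRNAs 0.321. The 8 rRNAs had the highest class median, 0.520, with 4 of 8 at 0.5 or more, and 4 of the 8 are near-identical copies of 5.8S rRNA that share reads. The 18S rRNA had an r of 0.466 and the 28S rRNA 0.409, the 2 lowest of the 8.

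19 gene lists were described by their counts and medians beside those of all members. Mitochondrially encoded mRNAs had the highest median r, 0.588 (13 members, from 0.478 to 0.672), and 11 of 13 reached 0.5, against 23.8% of all members. Their median mean RPKM was 3267. MT-CO3, a cytochrome oxidase subunit, had an r of 0.531, MT-CO2 0.569 and MT-ATP8 0.668. The 60S ribosomal protein list had a median of 0.503, with 27 of 52 at 0.5 or more (RPL41 0.649, RPL11 0.469, RPLP1 0.387). The 40S list had 0.481, with 13 of 33 (RPS18 0.481, RPS29 0.453, RPS12 0.287). hnRNP and SR proteins, the nuclear proteins of splicing, had 0.477, with 15 of 45 (HNRNPA1 0.555, HNRNPA2B1 0.482, PCBP1 0.442). Chaperones had 0.468, with 21 of 47 (HSPA1B 0.559, HSPA1A 0.542), and proteins of nucleolar ribosome assembly 0.445, with 9 of 23 (NCL 0.717, NPM1 0.651, NOP10 0.409).

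Median r was 0.439 for globins, with 1 of 9 at 0.5 (HBG2 0.552, HBG1 0.492, HBA2 0.442). Nuclear genes of oxidative phosphorylation had 0.436, with 21 of 73 (UQCRH 0.687, a transcript of ATP5F1B without a defined CDS 0.596, COX8A 0.399). The cytoskeleton list of tubulins, actins and actin-binding proteins had 0.435, with 10 of 30 (the thymosins TMSB4X 0.551 and TMSB10 0.506, the tubulin TUBB 0.435). Translation factors had 0.433, with 19 of 59 (a retained-intron transcript of EEF1A1 0.622, EEF2 0.553, EEF1G 0.540). Glycolysis had 0.425, with 4 of 13 (ENO1 0.538, GAPDH 0.535, LDHB 0.510). Noncoding RNAs and hosts of small nucleolar RNAs had 0.413, with 6 of 22 (SNHG6 0.488, GAS5 0.413). Histone variants had 0.394, with 2 of 6 (H3-3A 0.604, H1-10 0.514, H2AZ1 0.439).

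4 lists held pseudogenes of their genes: without these the median was 0.442 for hnRNP and SR proteins (33 members), 0.416 for translation factors (50), 0.388 for the cytoskeleton list (27) and 0.387 for selenoproteins (4). Of the lists below the median of all members, with such pseudogenes kept, the proteasome had 0.364 (3 of 31 at 0.5, PSMB1 0.497). Erythroid and leukemia transcription factors had 0.354 (0 of 10, GATA1 0.455, KLF1 0.362). Selenoproteins had 0.343 (0 of 5, GPX4 0.481, SELENOH 0.431, SELENOF 0.343). Replication and cell cycle had 0.342 (3 of 43, CKS2 0.487, PCNA 0.448). Aminoacyl-tRNA synthetases had 0.337 (2 of 21, SARS1 0.635, AARS1 0.476, and a transcript of EPRS1 without a defined CDS 0.320). Iron metabolism stood last at 0.281, with 0 of 6 at 0.5 and 2 under 0.2, a level under which 4.43% of all members lie. FTH1 and FTL, the ferritin genes, had 0.473, in a target of nonsense-mediated decay, and 0.453. The members of iron metabolism were long, with a median of 3425.5 scored positions against 909 for all. Windows high in both profiles were held by 6 of 23 nucleolar genes (9 of 327 windows, 2.75%), 11 of 59 translation factors (1.84% of windows) and 10 of 47 chaperone genes (1.83%). Of all members, 351 of 3745 held one, and the share was 0.853% of all windows. Also above that share were the erythroid and leukemia factors (1.44%), the noncoding RNA and host list (1.32%) and histone variants (1.25%). The hnRNP and SR list had 1% and the synthetases 0.917%. NCL held 3 of the 9 nucleolar windows. EIF3A, a scaffold subunit of the initiation factor that holds the small ribosomal subunit, had 6 of the 18 windows of translation factors. The 60S list held 1 in 330 windows, the 40S list 0 in 211 and the mitochondrial mRNAs 0 in 106.

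The abundance measured by the reagents was close for most genes. The log2 ratio of icLASER to icSHAPE RPKM had a median of -0.04, with -0.64 and 0.69 at the 10th and 90th percentiles. At 2-fold, 155 members (4.14%) were higher in icLASER and 54 (1.44%) higher in icSHAPE. The genes named here are the 5 of largest ratio in each direction at a mean RPKM of at least 20. The heat shock genes HSPA1A and HSPA1B, which encode nearly the same protein and share reads, had 128 and 154 in icSHAPE and 499.6 and 579 in icLASER, 3.89-fold and 3.75-fold higher. SRM, the spermidine synthase gene, was 4.12-fold higher in icLASER, at 61.1 against 14.8, RN7SL602P, a 7SL pseudogene, 6.98-fold, and a 391 nt transcript of CSF2RA, a cytokine receptor gene, without a defined CDS 3.83-fold. All 30-nt words (100%) of this CSF2RA transcript and 69.8% of those of RN7SL602P occurred in another gene, so their ratios cannot be assigned to the named gene. Of the chaperone list, 5 of 47 were 2-fold higher in icLASER and 1 in icSHAPE. HSPA1A and HSPA1B, whose reads are shared, are among the 5. Higher in icSHAPE were EMP2 (12.9-fold), CEBPZOS (7.23-fold), MSX1 (5.38-fold), STAG2 (5.16-fold) and RDH11, a retinol dehydrogenase gene (2.74-fold). Ribosomal proteins stood on that side too: the median log2 ratio was -0.55 for the 60S list and -0.58 for the 40S list, and 6 of 52 and 4 of 33 were 2-fold higher in icSHAPE, with 0 in icLASER. Glycolysis had a median of 0.61. The ratio moved with length, from -0.21 in the shortest of 5 equal groups of members to 0.23 in the longest.

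Predicted pairing, computed from sequence, was set beside the calls. Over 1866478 positions with sequence, the mean predicted unpaired probability was 0.561 at positions reactive in both, 0.587 in icSHAPE alone, 0.437 in icLASER alone and 0.449 in neither. Within each base, the positions reactive in both or in icSHAPE alone were above those in neither: at A the means were 0.743, 0.716, 0.647 in icLASER alone and 0.611 in neither, and at G 0.477, 0.403, 0.370 and 0.294. At U they were 0.520, 0.554, 0.462 and 0.442, and at C 0.464, 0.508, 0.421 and 0.414. The icLASER-alone value over all bases lies below that of neither although it lies above it at each base, since 61.2% of those positions were G, whose overall mean was 0.323. Within a transcript, the score correlated with the probability at a median r of 0.161 for icSHAPE and 0.0389 for icLASER, and with the scores moved 1 nt downstream at 0.168 and 0.0761. These probabilities come from sequence alone and are not a measured structure.

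For 3547 members with at least 100 positions scored in all 4 profiles, the values on refolded RNA were set beside those in cells. The in vivo profiles pool 3 libraries for icSHAPE and 2 for icLASER, against 2 each in vitro. Median r between the reagents was 0.393 in vitro and 0.381 in vivo, with a median difference of 0.00558 (quartiles -0.0586 and 0.0750), and it was higher in vitro in 1860 members (52.4%). Over the 2006 of them with sequence the medians were 0.433 and 0.441, and 46.2% were higher in vitro, but within 3-base context they were 0.439 and 0.424, and 52.9% were. The share of positions reactive in both was 3.89% in vitro and 3.83% in vivo, where icSHAPE-reactive positions made up 11.3% and 12.2%, and the ratio to independence was 3.06 and 2.75. The profiles of a reagent in the 2 conditions share their control libraries, so these values are not independent. The hnRNP and SR list had 0.477 in vitro and 0.337 in vivo, with 37 of 43 members higher in vitro, and without its pseudogenes 0.442 and 0.317, with 27 of 31. Chaperones had 0.465 and 0.362 (33 of 46), nucleolar ribosome assembly 0.445 and 0.368 (17 of 23), and the noncoding RNA and host list 0.413 and 0.333 (15 of 20). Globins stood on the other side, with 0.439 in vitro and 0.4999 in vivo and 0 of 9 higher in vitro, as did mitochondrial mRNAs, with 4 of 13 higher in vitro. By region, the medians in vitro and in vivo were 0.335 and 0.326 in the 5′ UTR, 0.368 and 0.393 in the CDS, and 0.307 and 0.342 in the 3′ UTR. In the windows high in both in vitro, the median window mean in vivo was 0.252 for icSHAPE (95 windows) and 0.427 for icLASER (103 windows), against 0.472 and 0.498 in vitro. In windows high in neither it was 0.165 and 0.141. These windows were chosen by their in vitro values. Lower in vivo means there are therefore given as values only.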

How the data were processed

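RNA of K562 was probed with NAI-N3 or NAz-N3, and reads were mapped by the authors to GRCh38 transcripts of Ensembl release 88 and scored with the icSHAPE pipeline, without its last minimums on coverage and background. Trimmomatic and Bowtie2 are named in the submitters' processing notes. The deposited profiles, pooled over libraries by the authors, give an RPKM per transcript, normalized for length and library size, and an enrichment score per nucleotide from 0 to 1. Here 13 icSHAPE in vitro scores outside that range were treated as not scored. Sequence, regions and genes came from GENCODE release 44 (GRCh38), and the stop codon was counted as CDS. Correlations and shares were computed with Python 3.11.15 and numpy 2.4.6 and checked on data with known answers, and figures were drawn with matplotlib 3.10.9. RNAplfold (ViennaRNA 2.7.2) used a window of 150, a span of 120 and 37 °C. A read in exons common to several transcripts can count for each. Members and lists were chosen with earlier results of these data known. Named genes were the 10 of highest and lowest r with at least 500 positions and a mean RPKM of at least 20, the 5 of highest and lowest RPKM ratio at that RPKM, the rRNAs and the most abundant of each list. EIF3A, PNISR, CANX, the 100 nt windows and their level, the codon counts and the shared 30-nt words were chosen after values were seen. Alternatives changed the correlation, the reactive score, the transcript choice, minimums, the sequence context and the folding window.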

Additional observations from a re-analysis of the deposited data

How the results depend on the processing

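No paired analysis was possible because the authors pooled the libraries, which also leaves no library to leave out. Some orders turned with the setting: the 5′ UTR lay above the 3′ UTR except with at least 300 positions (0.273 against 0.307) and within context (0.311 against 0.321), and C above U except with icSHAPE moved downstream. The difference in r between in vitro and in vivo, 0.00558, turned to -0.0109 over members with sequence and 0.00937 for the same members within context. Intervals against which a change is judged cover the spread over genes or counting only. The median r of 0.387 became 0.365 with Spearman's rho, 0.377 over all transcripts, 0.411 with the most abundant transcript of matching length, 0.358 with at least 500 positions, 0.458 at a mean RPKM of at least 20, 0.262 without positions at 0 in both, and 0.286 as the phi of reactive calls. Chosen after seeing the data, it was 0.358 relative to 100 nt window means and 0.347 in 675 members with under 10% of 30-nt words in another gene. The overlap ratio of 3.02 was 2.24 at a score of 0.3, 4.43 at 0.8, 3.32 for the highest 10% of each transcript, 3.33 as a median, 3.11 over all transcripts and 2.81 within context. The CDS gave 0.328 in transcripts with all 3 regions, and the 5′ UTR value at 300 positions rests on 62 transcripts. With icSHAPE moved 1 nt downstream, r was 0.254 at A, 0.222 at C, 0.286 at G and 0.232 at U, and with at least 100 positions it was 0.461, 0.371, 0.523 and 0.353. Within context, r was 0.447 with the own base alone and 0.419 with 5 bases. At 3-fold, 22 genes were higher in icLASER and 4 in icSHAPE, and among the 1794 members with a mean RPKM of at least 20 there were 84 and 42. The unpaired probability, 0.113 higher in both than in neither, was 0.101 higher with window 80 and span 60, 0.141 with scores moved downstream and 0.1104 at a score of 0.8. Lysine and glutamate codons made up 23.6% at a window mean of 0.3 and 34.0% at 0.5 (19 windows), also chosen after seeing the data. Centring the RPKM ratio changed neither count by 1.5 times. The causes were not tested.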
